A study of Mus musculus with 8 samples.

Results

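Semaphorins, plexins, ephrins and Eph receptors were examined in 4 mouse mammary tumour cell lines by RNA-seq of total RNA. Members were all genes of the count matrix whose identifier maps to a semaphorin of classes 3 to 7, a plexin, an Eph receptor or an ephrin symbol. There were 51 members of 27179 genes, made up of 20 semaphorins, 9 plexins, 14 Eph receptors and 8 ephrins. The lines, each untreated and sequenced in 2 biological replicates, were 4T1.2, 4T1, 66cl4 and 67NR (66cl4 is spelled 66c14 in the sample labels). They are related lines from a BALB/c mammary tumour, 4T1.2 being a clone of 4T1, in which 4T1.2 and 4T1 are the highly metastatic and 66cl4 and 67NR the poorly metastatic lines in the study's description. Each metastatic class thus holds only 2 established lines, so a difference between the classes and a difference between particular lines cannot be told apart, and replicates of a line measure the spread within that line.

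Semaphorins are secreted or membrane-bound guidance cues first known from growing axons. Class 3 semaphorins are secreted and mostly act through a neuropilin bound to an A plexin, whereas the membrane-bound classes bind plexins directly. Ephrins are membrane-anchored ligands of the Eph receptor tyrosine kinases, so that signals pass at cell contacts and in both directions. Ephrin-As carry a lipid anchor and mostly bind EphA receptors, and ephrin-Bs span the membrane and mostly bind EphB receptors. In mammary and vascular tissue these families are known for roles in boundary formation, cell migration and vessel patterning.

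The upstream sequences of 5 members are shown to give the promoter context of the values that follow: those with the widest fitted change between the 2 pairs of lines among members with a single window in the promoter table. Sema6d, whose fitted change was wider than that of 4 of them, has 2 windows and is not shown. Each is the 250 bases before a RefSeq transcript start (build GRCm38.p6), read 5′ to 3′ on the gene's strand. Capitals mark GC boxes (GGGCGG, or CCGCCC on the other strand) and E-boxes (CAGGTG, or CACCTG on the other strand), and these matches did not overlap each other in the 5 windows. The windows are chr5:13396534-13396783 (plus strand) for Sema3a, chr5:17574566-17574815 (plus strand) for Sema3c, chr1:194619579-194619828 (plus strand) for Plxna2, chr6:42373269-42373518 (minus strand) for Epha1 and chr10:80179232-80179481 (plus strand) for Efna2. The Sema3a window precedes an internal start, since the annotated gene spans chr5:13124822-13603485. The windows of Plxna2 (gene start at chr1:194619791) and Epha1 (gene end at chr6:42373314) also reach into the annotated gene.
Sema3a: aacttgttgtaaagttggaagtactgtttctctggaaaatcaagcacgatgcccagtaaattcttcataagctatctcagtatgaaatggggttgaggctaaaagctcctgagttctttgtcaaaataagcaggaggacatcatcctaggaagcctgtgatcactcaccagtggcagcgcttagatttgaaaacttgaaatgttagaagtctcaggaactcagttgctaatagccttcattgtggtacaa
Sema3c: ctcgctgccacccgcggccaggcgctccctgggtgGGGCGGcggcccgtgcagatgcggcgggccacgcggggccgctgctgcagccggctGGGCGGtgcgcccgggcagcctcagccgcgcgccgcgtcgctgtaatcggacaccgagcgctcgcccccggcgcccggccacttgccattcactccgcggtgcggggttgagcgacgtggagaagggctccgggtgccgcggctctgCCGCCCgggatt
Plxna2: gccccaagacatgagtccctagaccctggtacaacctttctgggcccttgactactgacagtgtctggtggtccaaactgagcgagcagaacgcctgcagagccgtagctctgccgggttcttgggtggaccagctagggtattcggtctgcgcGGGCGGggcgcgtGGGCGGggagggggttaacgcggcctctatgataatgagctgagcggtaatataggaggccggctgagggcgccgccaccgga
Epha1: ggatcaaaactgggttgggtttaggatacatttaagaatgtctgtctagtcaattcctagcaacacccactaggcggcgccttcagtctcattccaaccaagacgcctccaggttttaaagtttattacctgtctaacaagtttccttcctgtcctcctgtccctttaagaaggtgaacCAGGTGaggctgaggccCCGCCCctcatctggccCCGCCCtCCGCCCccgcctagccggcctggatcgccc
Efna2: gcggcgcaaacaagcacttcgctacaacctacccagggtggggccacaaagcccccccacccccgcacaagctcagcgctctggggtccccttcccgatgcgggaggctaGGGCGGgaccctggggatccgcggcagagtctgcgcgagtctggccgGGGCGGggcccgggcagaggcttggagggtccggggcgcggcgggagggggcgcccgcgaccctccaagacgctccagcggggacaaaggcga

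Sema3a and Sema3c, both far lower in 4T1.2 and 4T1 than in the other lines, differed in these windows. The Sema3a window, which lies inside the annotated gene, was 40.8% GC and held no GC box. The Sema3c window, which ends at the start of its gene, was 78.4% GC and held 3, so the windows are of unlike position. The Epha1 window held 3 GC boxes and 1 E-box. Of all members, 45 matched the promoter table with 59 windows, whose median GC content was 64% against 52.4% over all 32851 windows of the same length. A GC box was present in 74.6% of member windows against 32.7% of all, an E-box in 13.6% against 17.2%, and a TATA box (TATAAA, or TTTATA on the other strand) in 1.69% against 12.4%. These are matches of letters only. The windows of the whole table cover 27025 genes, among them genes not tested here, and no background limited to tested genes was made.

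Library totals ran from 37159840 to 66269681 counts, and members held between 0.153% and 0.297% of them. Correlations of log2 CPM (counts scaled by the TMM effective library size) ran from 0.995 to 0.996 between replicates of a line and from 0.779 to 0.985 between libraries of different lines. Krt8, a keratin of luminal epithelium, had at least 16981 counts in every library. Epcam and Cdh1, which define epithelial cells, had 629 to 2378 counts in the libraries of 4T1.2 and 4T1 and at most 7 in those of 66cl4 and 67NR. Cdh2 and Zeb1, mesenchymal markers, had at most 28 counts in the former and at least 2311 in the latter. Of the leucocyte markers, Ptprc had at most 2 counts and Cd3e and Adgre1 had none. Csf1r had at most 7 and Itgam at most 16, whereas Cd79a had 5 to 35, with 35 in each library of 67NR. Of the neuronal markers, Snap25 had no count, Rbfox3 at most 3, Syt1 at most 9 and Syn1 6 to 65, most in 67NR. Of the endothelial markers, Kdr had at most 1 count, whereas Tie1 had 336 to 370 and Cdh5 90 to 204 in 4T1. The 6 epithelial markers summed to 1470 to 2890 CPM in 4T1.2 and 4T1 and to 465 to 720 in the other lines, though Krt5 had at most 9 counts anywhere and Krt18, at 113 and 115 CPM in 66cl4, was at 0.819 and 1.13 in 67NR. Of the 6 mesenchymal markers, 5 were lower in every library of 4T1.2 and 4T1 (Cdh2, Zeb1, Fn1, Twist1 and Pdgfrb), whereas Vim was higher (4750 to 6910 CPM against 1890 to 3540), and the summed levels overlapped (5400 to 7460 CPM against 3360 to 5760). Many of the epithelial and mesenchymal markers thus separated the same pairs of lines as the main comparison below, and their part in the members' differences was not tested.

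The first comparison asked how the members differ between the highly metastatic pair, 4T1 and 4T1.2, (the 4T1 pair), and the poorly metastatic pair, 66cl4 and 67NR. Most semaphorins and their receptors differed, and not in a common direction. Sema3a and Sema3c, secreted guidance cues, were 519-fold and 48.7-fold lower in the 4T1 pair, and so was Plxna2, a receptor subunit of such cues, by 106-fold. Sema3b, Sema4c, Sema4d, Plxnb1 and Epha1 were between 9.17-fold and 52.1-fold higher. Fold changes and adjusted p-values are from the quasi-likelihood test of edgeR, adjusted by Benjamini-Hochberg over 13913 tested genes, with 0.05 as the threshold, and are printed as log2 fold change ± SE, positive where the first-named line or pair is higher.

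Of the 51 members, 45 passed the filter on low counts. In the 4T1 pair, 22 were higher and 20 lower, and Sema4b, Plxnb3 and Efna4 did not pass the threshold. Over all genes tested, 38.1% were higher and 38.6% lower, so most genes differed between these lines. Over 2-fold, 14 members were higher and 14 lower, 62.2% of those tested in both directions together, against 15.9% and 16% of all genes. The libraries of the pairs did not overlap for 28 of the members that passed, 62.2% of those tested against 55.3% of all genes. The median absolute log2 fold change was 1.61 over members and 0.58 over all genes. Efna2, Epha8, Sema3d and Plxna4 reached the filter's level (0.174 CPM) in one pair of lines only and thus had to differ to be tested. Without them, 24 of 41 members (58.5%) passed with over 2-fold, against 24% of the other genes when genes of that kind were left out in the same way.

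**Figure D1:**
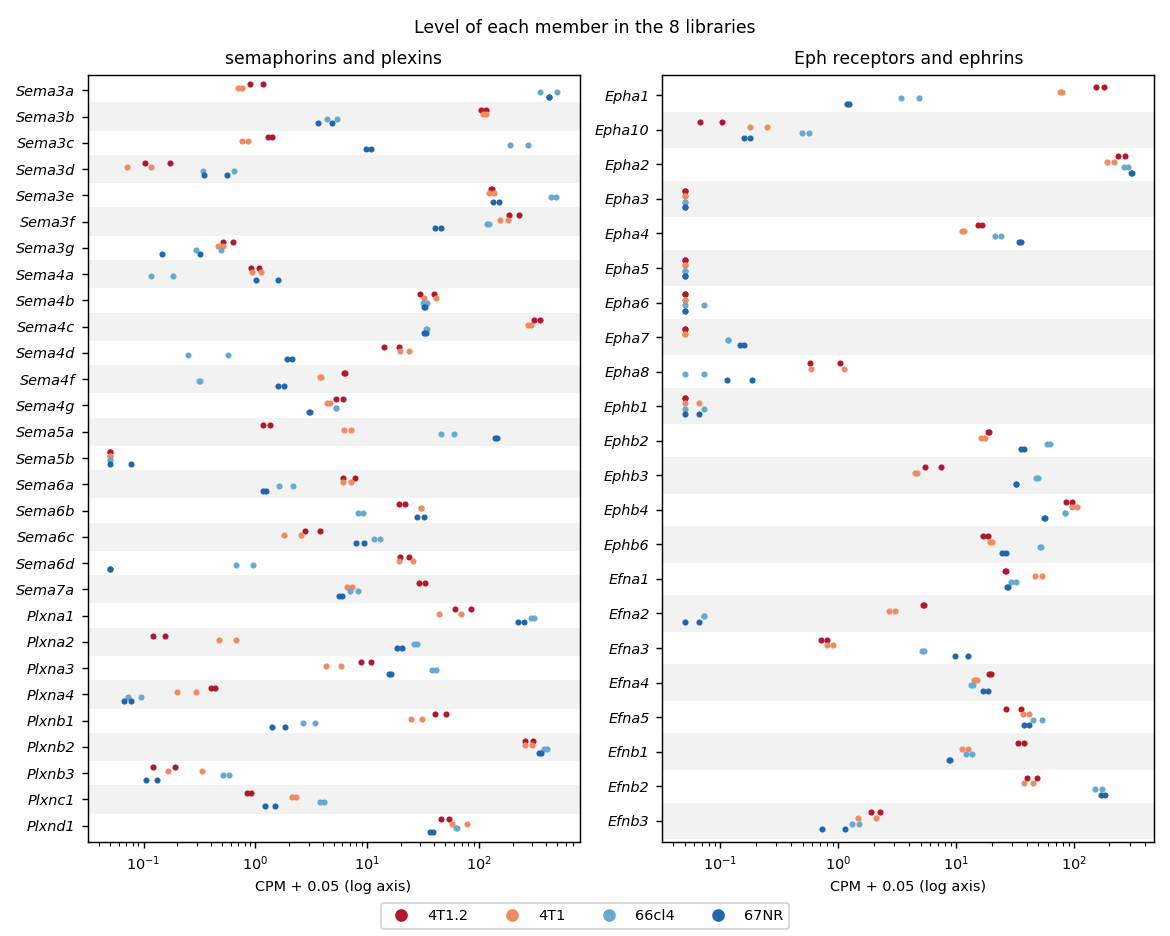
Each row is a member and each point a library, coloured by line, on a log axis of CPM after adding 0.05. Sema3a, Sema3c, Sema5a and Plxna2 lie far to the left in both libraries of 4T1.2 and 4T1, and Sema3b, Sema4c, Sema4d, Plxnb1 and Epha1 far to the right, while Plxnb2 and Epha2 lie close together in all 8 libraries.

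Among the secreted class 3 semaphorins, the 4T1 pair held little Sema3a and Sema3c and much Sema3b and Sema3f. Sema3a, a repulsive ligand of neuropilin-1 and A plexins, had 1.11 and 0.847 CPM in the libraries of 4T1.2, 0.655 and 0.712 for 4T1, 501 and 352 for 66cl4, and 420 and 426 for 67NR. It was low in both lines of the 4T1 pair and high in both others, and its log2 fold change was -9.02 ± 0.16 (adjusted p = 3.3e-11). Sema3c, which acts through neuropilins and plexins A and D1, had 1.37 and 1.24 CPM in the libraries of 4T1.2, 0.803 and 0.712 for 4T1, 276 and 188 for 66cl4, and 9.72 and 10.7 for 67NR. Its 66cl4 libraries stood above all others and its 67NR libraries lay between, with a pooled change of -5.61 ± 0.15 (adjusted p = 4.58e-10). Sema3d had few reads, with 3 and 7 counts in the libraries of 4T1.2, 4 and 1 for 4T1, 27 and 13 for 66cl4, and 11 and 31 for 67NR. The groups did not overlap and the change was -2.71 ± 0.45 (adjusted p = 0.000336).

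Sema3b, a class 3 semaphorin known as a growth inhibitor in lung and breast tumour cells, had 116 and 105 CPM in the libraries of 4T1.2, 109 and 116 for 4T1, 5.31 and 4.31 for 66cl4, and 3.58 and 4.78 for 67NR. All 4 libraries of the 4T1 pair were above 100 CPM and all others below 6, with a change of 4.63 ± 0.11 (adjusted p = 1.89e-10). Sema3f, the preferred semaphorin ligand of neuropilin-2, had 228 and 185 CPM in the libraries of 4T1.2, 183 and 154 for 4T1, 118 and 123 for 66cl4, and 40.4 and 46.1 for 67NR. It fell in steps from 4T1.2 and 4T1 to 66cl4 and then to 67NR, and the pooled change was 1.37 ± 0.09 (adjusted p = 3.93e-07). Sema3e, which binds plexin D1 without a neuropilin and repels endothelial cells, had 132 and 127 CPM in the libraries of 4T1.2, 124 and 136 for 4T1, 486 and 439 for 66cl4, and 152 and 134 for 67NR. Only 66cl4 stood apart. The pooled change was -0.99 ± 0.07 (adjusted p = 6.31e-07), while against 67NR alone 4T1.2 and 4T1 differed by -0.15 ± 0.10 (adjusted p = 0.207) and -0.13 ± 0.10 (adjusted p = 0.25). The remaining member, Sema3g, was at most 0.581 CPM in every library and higher in the 4T1 pair by 0.99 ± 0.32 (adjusted p = 0.0184), with libraries that overlapped. That call was lost without 4T1.2 replicate 1, 66cl4 replicate 2 or 67NR replicate 2 and in DESeq2. Against 66cl4 alone, neither 4T1.2 (0.59 ± 0.42, adjusted p = 0.232) nor 4T1 (0.34 ± 0.43, adjusted p = 0.498) passed for Sema3g.

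Class 4 semaphorins, which span the membrane, were mostly higher in the 4T1 pair in the pooled comparison. Sema4c, Sema4d and Sema4f were higher against both 66cl4 and 67NR. Sema4c, a ligand of plexin B2, had 354 and 312 CPM in the libraries of 4T1.2, 291 and 272 for 4T1, 34.4 and 33.5 for 66cl4, and 31.9 and 33.6 for 67NR. The libraries of a pair lay close together and the pairs far apart, with a change of 3.20 ± 0.07 (adjusted p = 1.06e-10). Sema4d, the ligand of plexin B1, had 19.2 and 14 CPM in the libraries of 4T1.2, 23.6 and 19.6 for 4T1, 0.199 and 0.514 for 66cl4, and 2.07 and 1.88 for 67NR. It was lowest in 66cl4, and the pooled change was 4.50 ± 0.20 (adjusted p = 1.46e-08). Sema4f had 6.34 and 6.13 CPM in the libraries of 4T1.2, 3.77 and 3.8 for 4T1, 0.265 and 0.268 for 66cl4, and 1.56 and 1.77 for 67NR. Its order, 4T1.2 above 4T1 above 67NR above 66cl4, had every neighbouring step past the threshold (adjusted p of 0.0072, 0.000117 and 1.94e-05, the first lost without 4T1.2 replicate 1), and the pooled change was 2.86 ± 0.13 (adjusted p = 2.53e-08). Sema4a had 58 and 49 counts in the libraries of 4T1.2, 65 and 41 for 4T1, 6 and 3 for 66cl4, and 35 and 95 for 67NR. Only 66cl4 was low. The pooled change was 1.41 ± 0.27 (adjusted p = 0.000956), while against 67NR alone 4T1.2 and 4T1 differed by -0.44 ± 0.28 (adjusted p = 0.187) and -0.39 ± 0.28 (adjusted p = 0.247). Sema4g (3.01 to 5.61 CPM as line means) was higher in the 4T1 pair by 0.34 ± 0.10 (adjusted p = 0.0126), a call lost without 4T1.2 replicate 1. Its level in 4T1.2 and 4T1 did not differ from 66cl4 at the threshold (0.11 ± 0.14, adjusted p = 0.52, and -0.22 ± 0.14, adjusted p = 0.185). Sema4b (32.7 to 36.8 CPM) differed by 0.13 ± 0.11 (adjusted p = 0.305), which did not pass.

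In classes 5 to 7 the directions were mixed. Sema5a, a semaphorin with thrombospondin repeats that binds plexin B3, had 1.3 and 1.11 CPM in the libraries of 4T1.2, 7.08 and 6.17 for 4T1, 59.5 and 45.8 for 66cl4, and 144 and 138 for 67NR. The 4 lines were fully ordered, 67NR above 66cl4 above 4T1 above 4T1.2, and the pooled change was -4.92 ± 0.11 (adjusted p = 1.53e-10). Its relative Sema5b had a single count in all 8 libraries together. Sema6d, a ligand of plexin A1, had 1326 and 1121 counts in the libraries of 4T1.2, 1580 and 883 for 4T1, 28 and 40 for 66cl4, and 0 and 0 for 67NR. It was not read in 67NR, so bounds are given in place of fitted values: at 3 counts per library, 4T1.2 was at least 331-fold and 4T1 at least 344-fold above 67NR, and 66cl4 at least 11.6-fold. Against 66cl4, 4T1.2 was higher by 4.83 ± 0.24 (adjusted p = 2.35e-07) and 4T1 by 4.89 ± 0.24 (adjusted p = 2.07e-07). These bounds cover counting error only.

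Sema6a, a ligand of plexins A2 and A4, had 7.66 and 6.07 CPM in the libraries of 4T1.2, 7.08 and 6.02 for 4T1, 2.12 and 1.59 for 66cl4, and 1.2 and 1.13 for 67NR, higher in the 4T1 pair by 2.19 ± 0.14 (adjusted p = 3.72e-07). Sema6c ran the other way, with 3.72 and 2.72 CPM in the libraries of 4T1.2, 1.77 and 2.53 for 4T1, 13 and 11.5 for 66cl4, and 7.86 and 9.4 for 67NR and a change of -1.98 ± 0.15 (adjusted p = 9.69e-07). Both had libraries that did not overlap between the pairs. Sema6b was high in 3 lines and low in 66cl4, with 21.8 and 19.3 CPM in the libraries of 4T1.2, 30.4 and 30.3 for 4T1, 8.22 and 9.06 for 66cl4, and 28.1 and 32.1 for 67NR, and the pooled change was 0.63 ± 0.08 (adjusted p = 5.6e-05). Sema7a, a lipid-anchored semaphorin that binds plexin C1 and integrin beta 1, had 32.7 and 28.9 CPM in the libraries of 4T1.2, 7.28 and 6.61 for 4T1, 6.98 and 8.28 for 66cl4, and 5.87 and 5.59 for 67NR. Only 4T1.2 stood apart, and its pooled change of 1.15 ± 0.09 (adjusted p = 1.97e-06) was not shared by 4T1, which differed from 66cl4 by -0.14 ± 0.13 (adjusted p = 0.385) and from 67NR by 0.28 ± 0.14 (adjusted p = 0.0926).

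**Figure D2:**
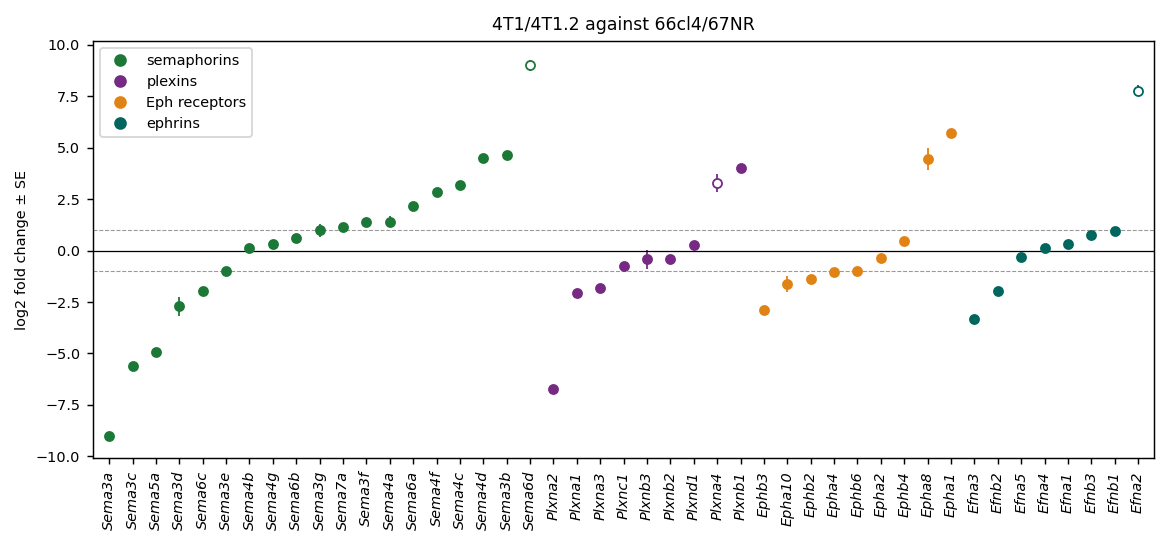
Log2 fold change of each tested member, 4T1 and 4T1.2 against 66cl4 and 67NR, with bars of ± SE and members grouped by family (open points rest on at most 3 counts per library on one side or on a line at 0, and dashed lines mark 2-fold). Changes run from -9.02 for Sema3a upward, and each of the 4 families has members on both sides of 0.

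Of the plexins, 3 were higher and 5 lower in the 4T1 pair, and Plxna1, Plxna2 and Plxna3 went the opposite way to Plxnb1. Plxna1, a co-receptor of class 3 semaphorins and a receptor of Sema6d, had 85.7 and 60.8 CPM in the libraries of 4T1.2, 69.1 and 43.8 for 4T1, 290 and 311 for 66cl4, and 251 and 225 for 67NR. Plxna2 had 0.0705 and 0.106 CPM in the libraries of 4T1.2, 0.426 and 0.626 for 4T1, 27.7 and 26.1 for 66cl4, and 20.5 and 18.6 for 67NR. Plxna3, which pairs with neuropilin-2, had 10.8 and 8.77 CPM in the libraries of 4T1.2, 5.8 and 4.21 for 4T1, 41.5 and 37.8 for 66cl4, and 15.5 and 16.4 for 67NR. In none of these 3 did the libraries of the pairs overlap, and their changes were -2.06 ± 0.15 (adjusted p = 8.35e-07), -6.72 ± 0.15 (adjusted p = 1.12e-10) and -1.84 ± 0.12 (adjusted p = 2.42e-07). Plxna1 shared 10.7% of its exonic bases with a gene on the opposite strand, and the strand setting of the counting is not given in the sources used here. Plxna4 was nearly unread, with 20 and 22 counts in the libraries of 4T1.2, 15 and 7 for 4T1, 1 and 2 for 66cl4, and 1 and 1 for 67NR, and its summed counts of 64 against 5 give a ratio of 10.9 (95% exact binomial interval 4.44 to 34.8, counting error only).

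Plxnb1, the receptor of Sema4d, had 50.7 and 40.6 CPM in the libraries of 4T1.2, 30.6 and 24.7 for 4T1, 3.36 and 2.63 for 66cl4, and 1.37 and 1.78 for 67NR. It was higher in the 4T1 pair by 4.02 ± 0.14 (adjusted p = 2.67e-09), as was Sema4d itself. Plxnb2, a receptor of Sema4c, was the most abundant plexin in every line and had 306 and 260 CPM in the libraries of 4T1.2, 299 and 257 for 4T1, 408 and 383 for 66cl4, and 356 and 341 for 67NR. It was lower by -0.40 ± 0.08 (adjusted p = 0.000868), a difference of 1.32-fold, while its ligand was 9.17-fold higher. Plxnd1, the receptor of Sema3e, ranged from 37.7 to 67.6 CPM as line means, with 0.25 ± 0.10 (adjusted p = 0.0355). That call was lost without 4T1.2 replicate 1, 4T1 replicate 1, either library of 66cl4 or either library of 67NR. Plxnc1, a receptor of Sema7a, was lower by -0.77 ± 0.14 (adjusted p = 0.000579), with libraries that overlapped between the pairs. Against 67NR alone, 4T1.2 was lower (-0.69 ± 0.21, adjusted p = 0.0163) and 4T1 higher (0.71 ± 0.19, adjusted p = 0.0086). Plxnb3, a receptor of Sema5a, did not pass (-0.42 ± 0.45, adjusted p = 0.413). The differences of Plxnc1 and Plxnb3 within the pairs are given further below.

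Among the Eph receptors, Epha1 was the member with the widest change. It is the first described receptor of the family and had 180 and 153 CPM in the libraries of 4T1.2, 76.8 and 78.6 for 4T1, 3.36 and 4.78 for 66cl4, and 1.15 and 1.18 for 67NR. The 4 lines were fully ordered, 4T1.2 above 4T1 above 66cl4 above 67NR, each step past the threshold, and the pooled change was 5.70 ± 0.12 (adjusted p = 1.02e-10). It shared 6.97% of its exonic bases with Zyx, on the opposite strand. Epha8 had 56 and 30 counts in the libraries of 4T1.2, 65 and 25 for 4T1, 1 and 0 for 66cl4, and 5 and 4 for 67NR, and its change of 4.46 ± 0.55 (adjusted p = 3.98e-05) rested on at most 5 counts per library in the lower pair. Epha2, a receptor frequently abundant in epithelial tumours, was the leading Eph receptor of each line, with 272 and 236 CPM in the libraries of 4T1.2, 218 and 190 for 4T1, 268 and 289 for 66cl4, and 311 and 306 for 67NR. It was lower in the 4T1 pair by -0.36 ± 0.07 (adjusted p = 0.00119), and the libraries of the pairs overlapped.

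Ephb2 and Ephb3, receptors for ephrin-Bs known from boundary formation in the gut, were lower in the 4T1 pair. Ephb2 had 18.7 and 19 CPM in the libraries of 4T1.2, 17.4 and 16.2 for 4T1, 62.6 and 58.6 for 66cl4, and 37.6 and 35.6 for 67NR, and its change was -1.40 ± 0.07 (adjusted p = 2.9e-08). Ephb3 had 7.37 and 5.45 CPM in the libraries of 4T1.2, 4.47 and 4.66 for 4T1, 49.6 and 47.6 for 66cl4, and 32.4 and 32.1 for 67NR, and its change was -2.87 ± 0.10 (adjusted p = 2.72e-09). For each, 66cl4 was above 67NR and the pairs did not overlap. Epha4, which binds ephrins of both classes, had 16.7 and 15.4 CPM in the libraries of 4T1.2, 11.2 and 11.6 for 4T1, 24 and 21.3 for 66cl4, and 35.5 and 33.9 for 67NR and changed by -1.05 ± 0.07 (adjusted p = 6.68e-07), with 67NR highest. Ephb6, a receptor whose kinase domain is inactive, had 18.6 and 16.9 CPM in the libraries of 4T1.2, 19.2 and 20 for 4T1, 52.1 and 51.7 for 66cl4, and 24.4 and 26.5 for 67NR, with a change of -0.97 ± 0.07 (adjusted p = 6.95e-07), just under 2-fold. Ephb4, the receptor of ephrin-B2 that marks veins, had 97.1 and 85.8 CPM in the libraries of 4T1.2, 106 and 96.8 for 4T1, 83.3 and 84.4 for 66cl4, and 56.9 and 55.2 for 67NR and was higher by 0.49 ± 0.07 (adjusted p = 7.8e-05). Against 66cl4 alone 4T1.2 differed by 0.12 ± 0.09 (adjusted p = 0.257) and 4T1 by 0.28 ± 0.09 (adjusted p = 0.0234). The latter call was lost without 4T1 replicate 1 or either library of 66cl4 and in a fit of those lines alone.

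Epha10, another Eph receptor with an inactive kinase domain, was nearly unread, with 1 and 3 counts in the libraries of 4T1.2, 12 and 6 for 4T1, 20 and 23 for 66cl4, and 4 and 8 for 67NR, and its pooled change was -1.61 ± 0.39 (adjusted p = 0.00395) with libraries that overlapped. The Eph receptors below the filter were Epha3 and Epha5 with no count in any library, Epha6 with 1, Ephb1 with 1 in each of 3 libraries, and Epha7. For Epha7 the 4 libraries of the 4T1 pair had no count, whereas those of 66cl4 had 3 each and those of 67NR 4 and 6. A count of 0 at these depths allows up to 3 counts per library.

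Of the 8 ephrins, 4 were higher and 3 lower. Efnb2, the ligand of Ephb4 that marks arteries, had 48.7 and 39.9 CPM in the libraries of 4T1.2, 45.1 and 37.7 for 4T1, 151 and 172 for 66cl4, and 185 and 171 for 67NR. It was lower in both lines of the 4T1 pair by -1.98 ± 0.09 (adjusted p = 2.49e-08), with no overlap. Its receptor Ephb4 was 1.41-fold higher in the pooled comparison, though 4T1.2 did not differ from 66cl4 at the threshold. Efna3 had 0.67 and 0.759 CPM in the libraries of 4T1.2, 0.852 and 0.756 for 4T1, 5.13 and 5.31 for 66cl4, and 9.75 and 12.6 for 67NR and changed by -3.33 ± 0.14 (adjusted p = 1.08e-08). It shared 14.6% of its exonic bases with a predicted gene on the opposite strand. Efna2 had 295 and 303 counts in the libraries of 4T1.2, 181 and 123 for 4T1, 1 and 1 for 66cl4, and 0 and 1 for 67NR, so that the 4T1 pair held 902 of its counts and the others 3, a ratio of 257 (95% exact binomial interval 87.5 to 1250, counting error only).

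The other ephrins changed by under 2-fold between the pairs. Efna1, a ligand of Epha2, had 26.2 and 26.4 CPM in the libraries of 4T1.2, 46.9 and 53.5 for 4T1, 29.2 and 32.4 for 66cl4, and 27.1 and 27.7 for 67NR, with a pooled change of 0.32 ± 0.07 (adjusted p = 0.00226). It was highest in 4T1, while 4T1.2 differed from 66cl4 by -0.23 ± 0.10 (adjusted p = 0.0687) and from 67NR by -0.06 ± 0.10 (adjusted p = 0.623). Efnb1 had 33.8 and 37.4 CPM in the libraries of 4T1.2, 11.1 and 12.5 for 4T1, 13.5 and 12.2 for 66cl4, and 8.65 and 8.87 for 67NR, with 4T1.2 above the rest, and a pooled change of 0.94 ± 0.08 (adjusted p = 3.29e-06). Efnb3 was at most 2.2 CPM in any library and changed by 0.75 ± 0.19 (adjusted p = 0.00551). Neither 4T1.2 (0.57 ± 0.27, adjusted p = 0.0793) nor 4T1 (0.36 ± 0.27, adjusted p = 0.252) passed against 66cl4 for Efnb3. Efna5 differed by -0.33 ± 0.10 (adjusted p = 0.0153), a call lost without 4T1.2 replicate 2, 66cl4 replicate 2 or 67NR replicate 2, and Efna4 by 0.11 ± 0.07 (adjusted p = 0.199), which did not pass. Efna4 shared 10.5% of its exonic bases with a gene on the opposite strand.

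**Figure D3:**
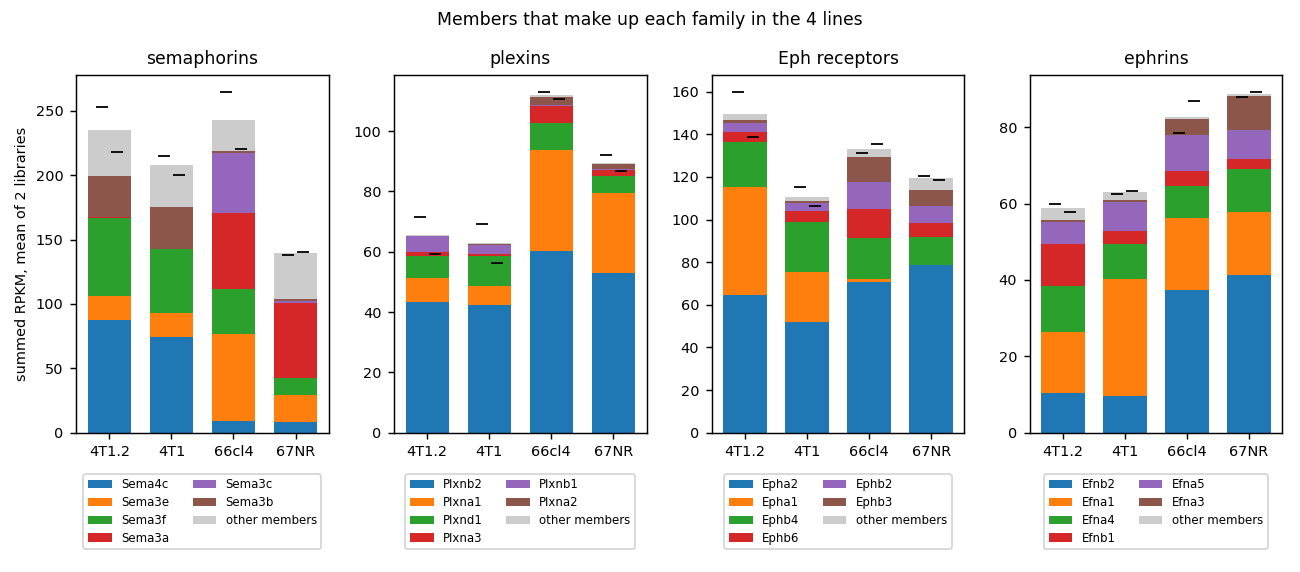
Stacked bars give the mean RPKM of the 6 most abundant members of each family and of all others together, by line, and short marks give the summed RPKM of each of the 2 libraries. Sema4c fills 37.2% and 35.7% of the semaphorin bar of 4T1.2 and 4T1, and Sema3a and Sema3e lead in 67NR and 66cl4.

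To compare levels between members, counts were divided by gene length (RPKM, the CPM per kilobase of gene). The leading semaphorin changed with the line. It was Sema4c in 4T1.2 (87.5 RPKM) and 4T1 (74 RPKM), Sema3e in 66cl4 (67.4 RPKM) and Sema3a in 67NR (58.1 RPKM). Summed class 4 semaphorins were at 103 ± 10.6 RPKM for 4T1.2, 90.3 ± 6.01 for 4T1, 18.6 ± 0.276 for 66cl4 and 18.8 ± 0.525 for 67NR (mean ± SD, n = 2). Summed class 3 semaphorins were at 112 ± 11.9, 102 ± 3.29, 210 ± 31.1 and 95 ± 0.341 RPKM in the same order, so that 66cl4 alone was high. The 4T1 pair and 67NR reached like sums with different leading members, Sema3f and Sema3a. Sema3e was at similar levels in them (18.8 RPKM in 4T1.2, 19 in 4T1 and 20.9 in 67NR).

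Plxnb2 led the plexins in each line with 53.9% to 67.7% of the summed RPKM. The A plexins summed to 9.56 ± 2.16 RPKM for 4T1.2 and 7.04 ± 2.14 for 4T1, and to 41.5 ± 1.16 for 66cl4 and 30.5 ± 2.07 for 67NR. Epha2 led the Eph receptors in each line, and Epha1 was next in 4T1.2 (50.8 RPKM) and 4T1 (23.7 RPKM) whereas Ephb4 was next in 66cl4 (19.2 RPKM) and 67NR (12.9 RPKM). Efna1 led the ephrins in 4T1.2 (16 RPKM) and 4T1 (30.6 RPKM), and Efnb2 in 66cl4 (37.4 RPKM) and 67NR (41.2 RPKM). The summed ephrin-Bs were 21.8 ± 0.75 and 13.7 ± 1.05 RPKM in the former and 41.7 ± 2.98 and 44.1 ± 2.08 in the latter.

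The next comparison set 4T1.2 against 4T1, the line from which it was cloned. Here 10 members were higher and 7 lower in 4T1.2, against 9.37% and 9.9% of all genes, and over 2-fold 3 were higher and 4 lower, against 1.94% and 4.51%. When 4T1.2 replicate 1 was left out the count of 17 fell to 10, with the calls of Epha4, Ephb3, Efna4, Epha10, Sema4f, Plxnd1 and Plxnb1 lost. Sema7a (line means of 30.8 and 6.94 CPM), Efnb1 (35.6 and 11.8 CPM) and Epha1 (166 and 77.7 CPM) were higher in 4T1.2, by 2.15 ± 0.13 (adjusted p = 1.18e-05), 1.60 ± 0.12 (adjusted p = 2.79e-05) and 1.10 ± 0.13 (adjusted p = 0.000475). Sema5a (1.21 and 6.63 CPM), Plxna2 (0.0882 and 0.526 CPM) and Plxnc1 (0.829 and 2.17 CPM) were lower, by -2.46 ± 0.17 (adjusted p = 2.64e-05), -2.51 ± 0.37 (adjusted p = 0.00132) and -1.39 ± 0.20 (adjusted p = 0.00123). Sema7a and its receptor Plxnc1 thus differed in opposite directions.

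Plxnc1 had 0.793 and 0.865 CPM in the libraries of 4T1.2, 2.28 and 2.07 for 4T1, 4.07 and 3.77 for 66cl4, and 1.17 and 1.46 for 67NR, lowest in 4T1.2 and highest in 66cl4. Plxna2 in this comparison rested on at most 29 counts per library. Epha10 had 4 counts in 4T1.2 and 18 in 4T1 altogether, a ratio of 4.75 (95% exact binomial interval 1.57 to 19.3, counting error only). Its fitted change of -2.17 ± 0.63 (adjusted p = 0.0392) lost its call when any library was left out and in DESeq2 (adjusted p = 0.121). Among the 10 members under 2-fold that passed, the largest absolute changes were those of Plxna3 (0.96 ± 0.17 (adjusted p = 0.00336)), Efna1 (-0.93 ± 0.10 (adjusted p = 0.000248)) and Efna2 (0.90 ± 0.17 (adjusted p = 0.00512)).

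In 66cl4 against 67NR, 20 members were higher and 8 lower, against 22.3% and 22.4% of all genes, and over 2-fold 10 were higher and 6 lower, against 7.92% and 6.81%. All plexins and all but 1 of the Eph receptors that passed were higher in 66cl4 (6 plexins and 6 of 7 Eph receptors, the exception being Epha4). The calls of Plxna2 and Plxnb1 were each lost when 1 of several libraries was left out, Plxna2 without 66cl4 replicate 1 or either library of 67NR and Plxnb1 without 66cl4 replicate 1 or 67NR replicate 1. Sema3c was higher by 4.51 ± 0.18 (adjusted p = 1.66e-07), Sema3e by 1.69 ± 0.10 (adjusted p = 1.76e-06) and Sema3f by 1.48 ± 0.13 (adjusted p = 1.82e-05), so these 3 secreted cues were all above 67NR there. Sema4a, Sema4d and Sema4f were lower, by -3.65 ± 0.43 (adjusted p = 0.000115), -2.46 ± 0.36 (adjusted p = 0.000456) and -2.64 ± 0.23 (adjusted p = 1.94e-05), with at most 23 counts in a 66cl4 library. Sema6b and Sema5a were lower as well, by -1.80 ± 0.12 (adjusted p = 3.38e-06) and -1.42 ± 0.13 (adjusted p = 2.39e-05).

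Plxnb3, a receptor of Sema5a, was nearly unread, with 8 and 4 counts in the libraries of 4T1.2, 7 and 13 for 4T1, 21 and 24 for 66cl4, and 2 and 5 for 67NR, and was higher in 66cl4 than in 67NR by 2.77 ± 0.55 (adjusted p = 0.00282). Against 4T1, the next line, 66cl4 passed at an adjusted p of 0.0186, a call lost in DESeq2 and without 4T1 replicate 1 or 66cl4 replicate 2. Plxna3 and Plxnc1 were also higher in 66cl4, by 1.31 ± 0.16 (adjusted p = 0.000121) and 1.55 ± 0.19 (adjusted p = 0.000134). Of the Eph receptors, Epha1 was higher by 1.80 ± 0.20 (adjusted p = 7.17e-05), Epha10 by 1.95 ± 0.43 (adjusted p = 0.00468) and Ephb6 by 1.02 ± 0.10 (adjusted p = 2.89e-05). Efna3 was the only ephrin past 2-fold and was lower, by -1.10 ± 0.16 (adjusted p = 0.00044). Epha1 was thus higher in 4T1.2 than in 4T1 and in 66cl4 than in 67NR, and Sema5a lower in both.

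**Figure D4:**
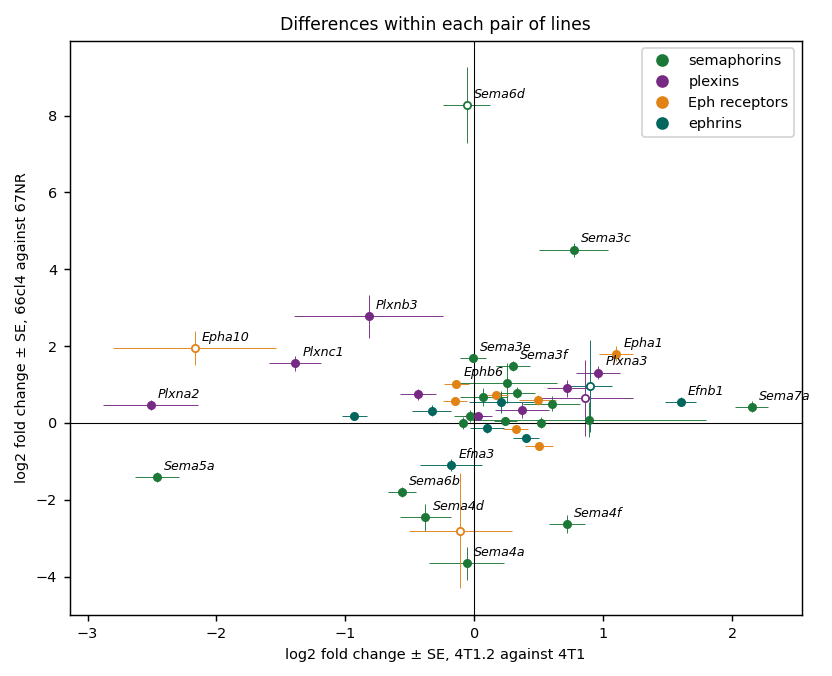
Each point is a tested member, with its log2 fold change ± SE in 4T1.2 against 4T1 on the x axis and in 66cl4 against 67NR on the y axis (open points rest on at most 3 counts per library in a line). Sema7a and Efnb1 lie far right near 0 on the y axis, Sema3c lies high near 0.77 on the x axis, and Sema5a and Epha1 lie in opposite corners. The fitted value of Sema6d is set by the prior count, since 67NR was at 0.

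Each line of the 4T1 pair was also set against each of the other pair, in comparisons that share libraries with those above. Members that passed numbered 38 in 4T1.2 against 66cl4, 38 in 4T1.2 against 67NR, 36 in 4T1 against 66cl4 and 37 in 4T1 against 67NR, of 45 tested. Among all genes 68.8%, 67.8%, 70% and 68.2% passed. Tested over the 4 lines at once, 44 members differed, against 84.7% of all genes, and Sema4b was the exception. In 10 members 66cl4 was highest and past the next line, in 6 it was 4T1.2, in 3 it was 67NR and in 1, Efna1, it was 4T1. Of the 10, Plxna2, Plxnb3 and Epha10 lost the call against the next line under an alternative (Epha10 in DESeq2), and of the 6, Sema4f and Plxnb1 did so without 4T1.2 replicate 1. The shares of all genes with that pattern were 12.1%, 4.61%, 10.7% and 5.12%.

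Of 40 related genes that encode co-receptors, proteases and intracellular partners of these families, 35 were tested, and in the pooled comparison 14 were higher and 16 lower (85.7%), with 7 higher and 3 lower by over 2-fold. Over all genes tested these shares were 38.1% and 38.6%, and 15.9% and 16% over 2-fold, so the list's share over 2-fold was near that of all genes. The neuropilins, which hold class 3 semaphorins to A plexins, were lower in the pooled comparison. Nrp1 had 18.7 and 17.5 CPM in the libraries of 4T1.2, 30.8 and 28.2 for 4T1, 41.5 and 32.1 for 66cl4, and 35.8 and 34 for 67NR, with a change of -0.63 ± 0.09 (adjusted p = 0.000122). It was lowest in 4T1.2, which differed from 4T1 by -0.70 ± 0.13 (adjusted p = 0.00463), while 4T1 differed from 66cl4 by -0.32 ± 0.13 (adjusted p = 0.046) and from 67NR by -0.24 ± 0.13 (adjusted p = 0.119), which did not pass. Nrp2 had 181 and 154 CPM in the libraries of 4T1.2, 163 and 127 for 4T1, 360 and 334 for 66cl4, and 288 and 250 for 67NR, with a change of -0.97 ± 0.10 (adjusted p = 8.08e-06). Neither reached 2-fold, and neither had libraries that overlapped between the pairs.

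The related genes with the largest rise in the 4T1 pair were Fes, a tyrosine kinase that acts below plexin A1, L1cam, an adhesion molecule that joins neuropilin-1, and Chn1, a Rac regulator below EphA4. Fes had 44.4 and 38.6 CPM in the libraries of 4T1.2, 33.4 and 32.9 for 4T1, 0.398 and 0.514 for 66cl4, and 0.0819 and 0.0973 for 67NR, a change of 7.48 ± 0.13 (adjusted p = 3.1e-11). Chn1 had 53 and 52.2 CPM in the libraries of 4T1.2, 37.2 and 40.2 for 4T1, 4.64 and 6.68 for 66cl4, and 8.11 and 7.52 for 67NR, a change of 2.76 ± 0.11 (adjusted p = 6.71e-09). L1cam had 103 counts in the 4T1 pair and 1 in the other, a ratio of 87.9 (95% exact binomial interval 15.4 to 3500, counting error only). Those with the largest fall were Dpysl3, a collapsin response mediator protein, and Mical1 and Mical2, oxidases that take apart actin below plexins. Dpysl3 had 2 counts in the 4T1 pair and 2173 in the other (ratio 1270, interval 352 to 10500) and Mical1 had 2 and 89 (ratio 52.2, interval 14 to 437). These intervals cover counting error only. Mical2 had 22.1 and 19 CPM in the libraries of 4T1.2, 20.9 and 15.7 for 4T1, 66.3 and 78.2 for 66cl4, and 28.9 and 27 for 67NR, a change of -1.21 ± 0.11 (adjusted p = 3.21e-06). Mical2 was highest in 66cl4, which was above 67NR by 1.37 ± 0.15 (adjusted p = 6.82e-05). Against 67NR alone, 4T1.2 differed by -0.44 ± 0.15 (adjusted p = 0.0236) and 4T1 by -0.61 ± 0.15 (adjusted p = 0.00501), both under 2-fold.

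Several members lie next to each other on a chromosome (GRCm38). Sema3d, Sema3a, Sema3e and Sema3c lie in this order within 5.35 Mb, from chr5:12383161-12588953 to chr5:17574816-17730268. All 4 were lower in the 4T1 pair in the pooled comparison. Against 67NR alone, however, Sema3e did not pass in 4T1.2 (-0.15, adjusted p = 0.207) or in 4T1 (-0.13, adjusted p = 0.25). The other genes tested in that stretch, Speer3 and Cacna2d1, were lower in the pooled comparison too, with at most 47 and 3 counts per library in the 4T1 pair. Speer3 belongs to a family with near-identical copies, so that its reads are uncertain. Sema3b (chr9:107597674-107609241) and Sema3f (chr9:107681499-107710475) lie 72.3 kb apart, and both were higher. Between or beside them, Gnai2 was higher by 0.51 on the log2 scale and Lsmem2 did not pass (0.22).

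Neighbours did not always go together. Efna1, Efna3 and Efna4 lie within gaps of 32.9 and 10.5 kb on chromosome 3, and Efna3 alone of them changed by over 2-fold, by -3.33 ± 0.14 against 0.32 ± 0.07 for Efna1 and 0.11 ± 0.07 for Efna4. Ephb2 and Epha8 are separated by 93.1 kb on chromosome 4 and went opposite ways, by -1.40 ± 0.07 and 4.46 ± 0.55. These stretches were chosen after the values were seen and are given as a description.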

How the data were processed

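Total RNA of 8 libraries was prepared by the authors with TruSeq RNA v2, aligned to mm10 and counted per gene with featureCounts per the labels' processing notes, and the deposited values are these raw counts, not normalized and with replicates not pooled. The strand setting is not given in the sources used here. Identifiers were matched to a GRCm38 gene table (25275 of 27179, 93%). Of 15269 genes that passed filterByExpr, 13913 were kept, after ribosomal and predicted genes and unmatched identifiers, with 5.39% to 8% of a library's counts, had been set aside.

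Tests were made in R 4.3.3 with edgeR 4.0.16 (quasi-likelihood, legacy fit, TMM, prior count 0.125), on a model with a mean per line over all 8 libraries and 4 residual degrees of freedom, checked on simulated data. SEs are the absolute log2 fold change over the root of F and are approximate. Depth of 37159840 to 66269681 counts per library limits only genes near 0, where a line with no count is given as a bound against 3 counts per library, and a line with 1 to 3 counts per library as a ratio of summed counts with an exact 95% binomial interval. Each library was counted as a sample because the study's methods call the replicates biological, and no replicate pair agreed within sampling noise, as copies of one library would (chi-square per degree of freedom of 10 to 73.3).

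Values per library are given for members past the threshold by over 2-fold in the pooled comparison, 4T1.2 against 4T1 or 66cl4 against 67NR, and also, outside that rule, for Plxnb2, Epha2, Ephb4 and Efna1; other members are given more briefly; of the related genes, the neuropilins and the 3 largest in each direction are named, the neuropilins outside that rule. Members, lists and comparisons were chosen with earlier results of these data known. Alternatives were DESeq2's size factors and Wald test (DESeq2 1.42.0), limma-voom (limma 3.58.1), other filters and fits, a replicate term, and leaving out each library. Promoter windows and gene coordinates are from RefSeq GRCm38.p6, and exon overlaps from a GRCm38 annotation. No table of proteins was used here.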

Additional observations from a re-analysis of the deposited data

How the results depend on the processing

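The 51 changes of members over 2-fold in the pooled comparison and in the comparisons within each pair kept their direction in the alternatives that tested them. No called change of a member in the pooled or single-line comparisons reversed its direction. For the related genes only the count of calls was repeated, and summed RPKM and line orders were not. In the pooled comparison 32 to 43 members passed, 32 of them when at least 10 counts were required in every library, which left 34 members to test. Without 4T1.2 replicate 1 the members called in 4T1.2 against 4T1 fell from 17 to 10, and over all libraries left out in turn that count ran from 10 to 17. With 1 library left in a line, that library is assumed to vary like the others. Of these 51 changes over 2-fold, Epha10 in 4T1.2 against 4T1 was the only one to lose its call. It did so under no filter (adjusted p = 0.0671), DESeq2's Wald test (0.121), a fit of the lines compared alone (0.11), the replicate term (0.0574) and every fit without a library. Single-line comparisons outside the 51 also lost calls over 2-fold, among them those of Plxnb3 and Epha10 given above. The median log2 fold change of all genes in the pooled comparison was -0.013 in the main fit. It lay between -0.015 and -0.003 under other scalings and fits, and was -0.046 with no filter on low counts.

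The replicate numbers were taken to be names only. Deviations of same-numbered libraries from their line means correlated at 0.269 between 4T1.2 and 4T1. In the other pairings of lines the correlations ran from -0.123 to 0.0738. The value for 4T1.2 and 4T1 does not show that their numbers are unrelated. With the number as a block, 42 members passed in the pooled comparison, 17 in 4T1.2 against 4T1 (Epha10 lost, Epha2 gained) and 29 in 66cl4 against 67NR (Epha8 gained).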
